A study of Mus musculus with 4 samples.

Results

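Genes of fatty acid oxidation were followed in livers of Wrn mutant mice set against livers of wild-type mice. The members were chosen by name, as a fixed list of 41 symbols for fatty acid uptake, activation, the carnitine shuttle and beta oxidation in mitochondria and peroxisomes. That list was chosen with earlier results of these data known. All 41 were found among the 20909 gene symbols of the authors' gene table, and each was read by 1 probe. The Wrn protein is a helicase of the RecQ family, and people who lack it have Werner syndrome, in which signs of ageing come early. Both groups were C57Bl/6 males aged 3 months with free access to food and a cycle of light and dark, and the labels give no treatment. The labels name the mutant animals only as Wrn mutant and do not state which allele they carried. RNA of 1 mutant and 1 wild-type liver was put on each of 4 two-colour arrays. The mutant RNA was in Cy3 in pairs 1 and 2 and in Cy5 in pairs 3 and 4, so dye orientation and animals change together. Each value below is the log2 ratio of 1 pair, given as mutant over wild type, and the number of arrays limits its precision.

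That direction is likely and not stated in the files. It rests on the sample titles, which put the mutant first. In the authors' deposited table, the log2 fold change of 36 of the 38 members with 4 values equals the plain mean of the arrays within 1e-04, with no sign turned between dye orientations. Among named probes brighter than the median, correlations across probes between arrays of opposite dye orientation ran from 0.160 to 0.244. Arrays of the same orientation gave 0.374 for pairs 1 and 2 and 0.206 for pairs 3 and 4. Over all probes, the 4 correlations between opposite orientations were -0.037, -0.034, 0.014 and -0.042, while arrays of the same orientation gave 0.123 and 0.063. The probe for Wrn read 1.77, 0.91, 1.12 and 1.37 in pairs 1 to 4, higher in the mutant in 4 of 4 pairs. Where that probe lies relative to the mutation is not stated, so it does not check the labels. Of 8 hepatocyte markers 7 were found, and all 7 were read by probes brighter than the median named probe, with average log2 intensities from 9.07 for Ttr to 15.8 for Alb. Their median log2 ratio was -0.10. Markers of B cells, stellate cells and cholangiocytes had medians of 0.89, -0.27 and -0.45. Means above 0 were seen in 6 of 6, 1 of 5 and 1 of 6 genes, against 53.5% of named probes. Only 1 of the 6 B cell markers was brighter than the median named probe, against 4 of 5 and 5 of 6 in the other 2 lists. The part of other cell types in the results was not tested. In whole liver, fewer cells of a type and less RNA per cell cannot be told apart.

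Fatty acids enter the hepatocyte through membrane and transport proteins, are joined to coenzyme A by acyl-CoA synthetases, and are then burned in either of 2 organelles. Long chains reach the mitochondrial matrix as carnitine esters, where repeated rounds of dehydrogenation, hydration, a further dehydrogenation and thiolytic cleavage release acetyl-CoA. Peroxisomes shorten very long and branched chains with their own enzymes and pass the products on. In liver, many of these genes are targets of PPAR alpha, a nuclear receptor that is activated by fatty acids and binds with RXR to direct repeats in DNA.

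The repeat known as DR1, AGGTCA followed by any 1 base and AGGTCA again, was searched on both strands of the promoters in RefSeq's table (GRCm38.p6), each covering 250 bases before to 50 after the start site. Up to 2 mismatches were allowed among its 12 fixed letters. Promoters were given for 35 of the 41 members, and 5 of these 35 genes (14.3%) held a match, against 1190 of 27025 genes (4.4%) in the whole table. A match is a description of letters and not a binding site. The 5 are shown because they are all the searched members whose promoters hold a match within the allowed mismatches. Each line gives 130 bases in the direction of the gene, from 100 bases before to 30 after the start site, with the match in capitals. The windows are chr5:17835867-17835996 (minus strand) for Cd36, chr6:71199779-71199908 (plus) for Fabp1, chr9:55512214-55512343 (minus) for Etfa, chr9:108662036-108662165 (plus) for Slc25a20 and chr14:8258810-8258939 (minus) for Acox2.
Cd36: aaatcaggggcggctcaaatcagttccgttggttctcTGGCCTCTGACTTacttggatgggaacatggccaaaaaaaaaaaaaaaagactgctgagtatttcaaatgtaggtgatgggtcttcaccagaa
Fabp1: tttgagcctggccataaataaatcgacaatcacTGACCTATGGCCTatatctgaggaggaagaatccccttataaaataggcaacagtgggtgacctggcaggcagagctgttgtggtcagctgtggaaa
Etfa: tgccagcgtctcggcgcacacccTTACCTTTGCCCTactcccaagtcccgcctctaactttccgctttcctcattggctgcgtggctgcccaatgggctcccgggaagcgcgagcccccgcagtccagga
Slc25a20: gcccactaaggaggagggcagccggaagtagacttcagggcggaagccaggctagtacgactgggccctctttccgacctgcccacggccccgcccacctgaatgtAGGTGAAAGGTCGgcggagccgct
Acox2: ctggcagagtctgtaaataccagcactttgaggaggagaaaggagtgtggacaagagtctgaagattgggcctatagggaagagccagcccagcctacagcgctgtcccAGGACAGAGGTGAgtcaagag
The Fabp1 match had 1 mismatch and the other 4 had 2 each. Those of Cd36, Fabp1 and Etfa read on the opposite strand, and begin at positions -63, -67 and -77, counted from the start site. Those of Slc25a20 and Acox2 read on the gene's own strand and begin 7 and 10 bases into the transcript. No match in these windows was found for Acaa1a, Acaa1b, Acsl1, Aldh3a2, Crot or Ehhadh, which says nothing about more distant sequence.

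Most of the members read higher in the mutant, by small amounts. Of the 41, 31 had a mean log2 ratio above 0 (75.6%), where 53.5% of named probes did, and the median of the members was 0.37, a 1.29-fold ratio, against 0.05 for all named genes. Of the 38 members with 4 values, 17 were higher in all 4 pairs (44.7%), against 10.9% of named probes with 4 values and 13.4% of those brighter than the median. Another 3 members, Acsl3, Acsl4 and Acox3, were lower in all 4 pairs (7.89%), against 10.1% of named probes and 12.7% of the brighter ones. The member medians were 0.49, 0.34, 0.42 and 0.13 in pairs 1 to 4.

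None of the 41 passed the test. With limma and a dye term, 0 members and 0 of 40238 probes (0%) had an adjusted p under 0.05, and adjusted p-values of the members ran from 0.736 to 0.925. Without adjustment, 14 members (34.1%) had a p under 0.05, of which 11 were higher and 3 lower. Over all probes it was 6.64%, with 3.45% higher and 3.19% lower. In the same fit, 966 of 20379 named probes were higher and 921 lower. In a fit of named probes brighter than the median, it was 17 of 36 members, against 1579 of 10414 probes. With no dye term it was 12 of 41, against 5.79% of all probes. Without pair 1 the excess over the background was absent, with 3 of 39 members (7.69%) against 6.79% of probes. It was absent too without pair 2, with 3 of 38 (7.89%) against 8.24%. Without pair 3 the count was 10 of 40 (25%), against 5.92% of probes, and without pair 4 it was 11 of 38 (28.9%), against 7.05%. These fits kept the dye term. Each probe's own residual spread then came from pairs 3 and 4 alone without pair 1 or 2, and from pairs 1 and 2 alone otherwise. The member median was 0.30, 0.35, 0.30 and 0.43 without pairs 1, 2, 3 and 4, against 0.37 with all pairs. These counts therefore do not show which pairs carried the excess. With a prior variance that followed probe intensity, 18 members were higher and 2 lower at that unadjusted threshold (48.8% in all), against 11.2% of named probes, 6.04% higher and 5.16% lower. In that fit 0 members passed after adjustment, against 0.206% of named probes, and the lowest adjusted p was 0.0579, for Acsl4. For a single gene over 4 pairs, the smallest two-sided p of the exact test that flips signs is 0.125. Per the series' design text, the 4 pairs are separate biological replicates.

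**Figure D1:**
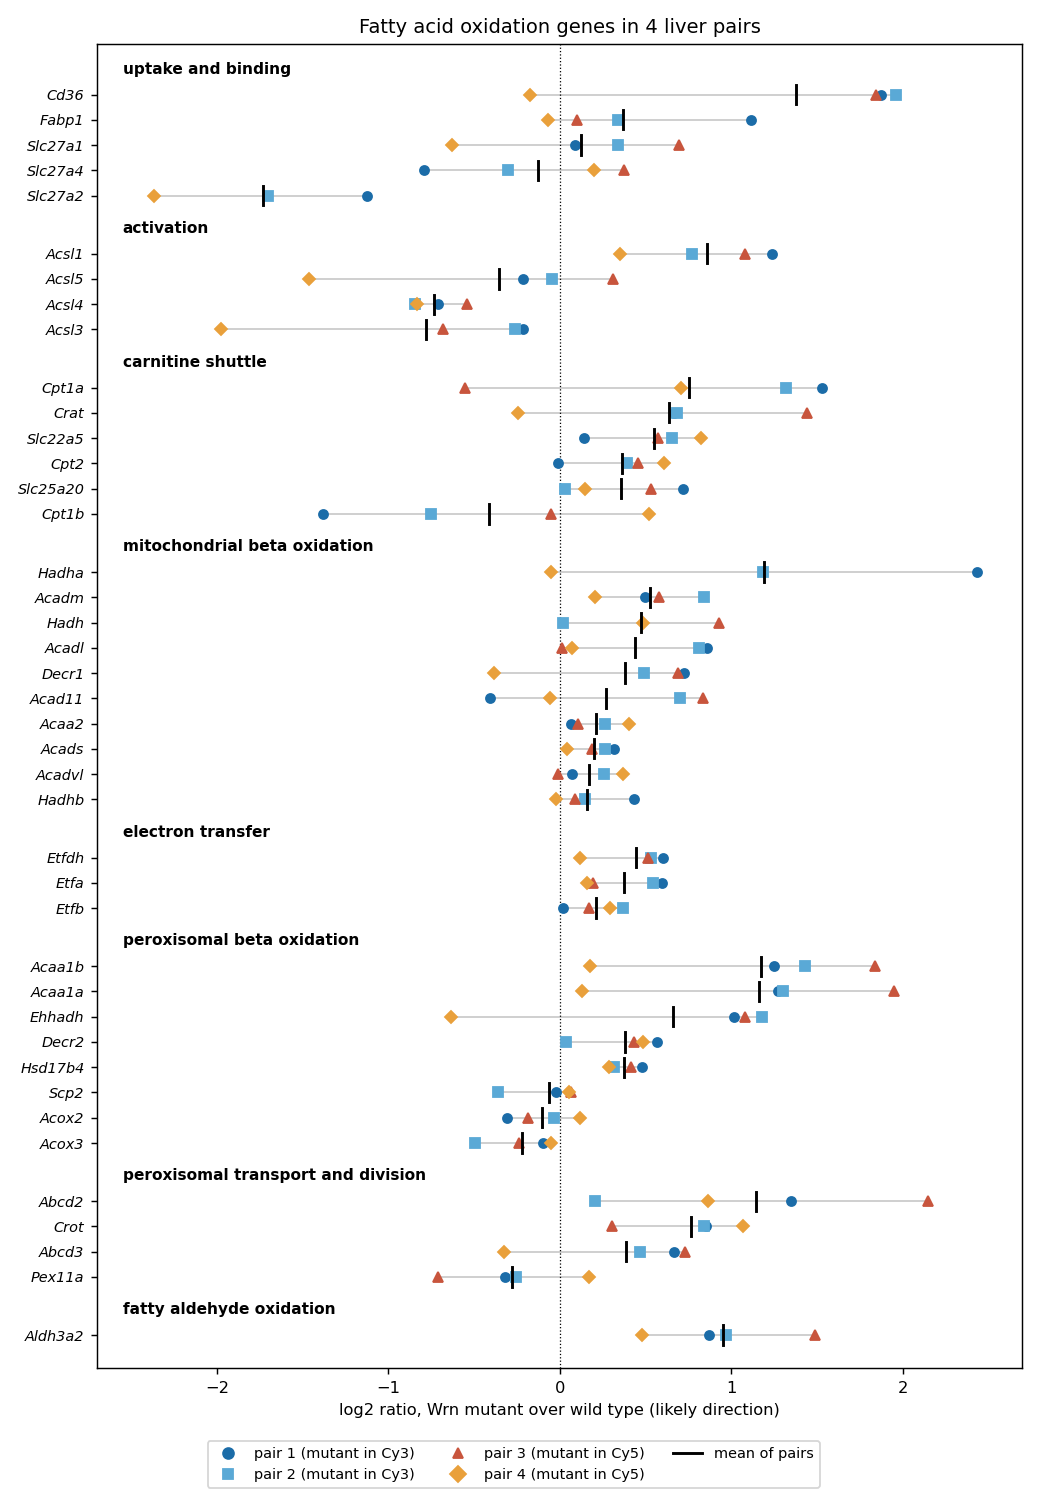
Log2 ratio (mutant over wild type, horizontal axis) of each of the 41 genes in each pair, grouped by role, with a black bar at the mean of the pairs and symbols by pair and dye of the mutant. The 2 thiolase genes Acaa1a and Acaa1b, Aldh3a2, Acsl1 and Crot lie to the right of 0 in all 4 pairs, and Acsl3 and Acsl4 to the left in all 4.

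Among uptake and binding genes the values went both ways. Cd36, a membrane protein that takes up long-chain fatty acids, read 1.87, 1.96, 1.85 and -0.17 in pairs 1 to 4, which averages 1.38 ± 1.03 (SD, n = 4) or 2.60-fold. The first 3 pairs were nearly equal and pair 4 was at the level of the wild type. The limma unadjusted p was 0.0235 (95% interval 0.30 to 2.45), and the mean without pair 4 was 1.89. Macrophages also express Cd36. Kupffer cell markers had a mean above 0 in 8 of 8 genes, against 53.5% of named probes. Medians of these markers were 0.84, 1.01, -0.23 and 0.88 in pairs 1 to 4. Sinusoidal endothelial markers had a mean above 0 in 6 of 7 genes, with a median of 0.18. Adipocyte markers, of another tissue that uses Cd36, had a mean above 0 in 4 of 7 genes and medians of -0.29, -0.09, 0.82 and 0.09. The part of any of these cells in the Cd36 ratio was not tested.

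Fabp1, the liver fatty acid binding protein, read 1.11, 0.34, 0.10 and -0.07, with a mean of 0.37 ± 0.52 (SD, n = 4). Pair 1 was the highest, and pairs 3 and 4 lay close to 0. Slc27a1 and Slc27a4, fatty acid transport proteins, had means of 0.12 ± 0.56 and -0.13 ± 0.53, and each was positive in some pairs and negative in others. Slc27a2, the transport protein that also acts as a very-long-chain acyl-CoA synthetase, read -1.12, -1.70 and -2.37 in pairs 1, 2 and 4 and had no value in pair 3. Its mean of -1.73 ± 0.62 (SD, n = 3) was the lowest of all members. This probe was also the dimmest of the 41, with an average log2 intensity of 3.89, above that of only 0.497% of named probes. The limma unadjusted p of Slc27a2 was 0.00483, with a fitted value of -1.89 because the dye term weights pair 4 as much as pairs 1 and 2 together. With the prior that followed intensity, its unadjusted p was 0.0682.

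The 4 acyl-CoA synthetases, which activate long-chain fatty acids, did not run together: 1 was higher in all 4 pairs and 2 were lower in all 4. Of named probes with 4 values, 10.9% were higher and 10.1% lower in all 4. Acsl1, the main form of liver, read 1.24, 0.77, 1.08 and 0.35, averaging 0.86 ± 0.39 (SD, n = 4) or 1.82-fold, with a limma unadjusted p of 0.0148 (95% interval 0.28 to 1.44). Acsl4, which prefers arachidonic acid, read -0.71, -0.84, -0.54 and -0.83, a mean of -0.73 ± 0.14 (limma unadjusted p = 0.00897, 95% interval -1.16 to -0.31). Every Acsl1 value lay above 0 and every Acsl4 value below it, and Acsl4 had the smallest SD among the 16 members with an absolute mean over 0.5. Acsl3, found at lipid droplets and endoplasmic reticulum, read -0.21, -0.26, -0.68 and -1.97, with a mean of -0.78 ± 0.82. It was lower in all 4 pairs, and pair 4 lay far below the others. Acsl5 read -0.21, -0.05, 0.31 and -1.46, with a mean of -0.35 ± 0.77, and was at 0.02 over pairs 1 to 3.

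The carnitine shuttle carries activated chains into the mitochondrion. Cpt1a, the liver form of the outer membrane enzyme that malonyl-CoA inhibits, read 1.53, 1.32, -0.55 and 0.71, with a mean of 0.75 ± 0.94 (SD, n = 4). It was higher in 3 pairs and lower in pair 3, with a limma unadjusted p of 0.0488, and its probe was slightly dimmer than the median named probe, at 6.26 against 6.40. Cpt1b, the muscle form, read -1.38, -0.75, -0.05 and 0.52, a mean of -0.41 ± 0.83. Both values with the mutant in Cy3 lay below both with it in Cy5. In limma it was the 1 member of 41 (2.44%) with an unadjusted p under 0.05 for the dye coefficient, against 6.67% of all probes. Striated muscle markers had a median of -0.02 and a mean above 0 in 4 of 8 genes, against 53.5% of named probes. Of the 8, 0 were brighter than the median named probe.

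Further along the shuttle, Slc25a20, the translocase of the inner membrane, read 0.72, 0.03, 0.54 and 0.15, with a mean of 0.36 ± 0.32 (SD, n = 4). Cpt2, which re-forms the acyl-CoA in the matrix, read -0.01, 0.39, 0.46 and 0.61, also with a mean of 0.36, ± 0.26. Slc22a5, which brings carnitine into the cell, read 0.14, 0.65, 0.58 and 0.82, with a mean of 0.55 ± 0.29 and a limma unadjusted p of 0.0350. Of the 6 carnitine shuttle genes, Slc25a20 and Slc22a5 were the 2 higher in all 4 pairs, against 10.9% of named probes with 4 values. Crat, the acetyltransferase that buffers short acyl groups, read 0.67, 0.68, 1.45 and -0.25, with a mean of 0.64 ± 0.69 (limma unadjusted p = 0.128) and its only negative value in pair 4.

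All 10 genes of mitochondrial beta oxidation had a mean above 0, from 0.16 for Hadhb to 1.19 for Hadha, where 53.5% of named probes did. The acyl-CoA dehydrogenases start each round and are named for the chain length they take. Acadm, for medium chains, read 0.50, 0.84, 0.58 and 0.20, averaging 0.53 ± 0.26 (SD, n = 4) or 1.44-fold, with a limma unadjusted p of 0.0354 (95% interval 0.06 to 1.00). Acadl, for long chains, read 0.86, 0.82, 0.01 and 0.07, with a mean of 0.44 ± 0.46 and a limma unadjusted p of 0.0379. Both of its high values came from the pairs with the mutant in Cy3. Acads, for short chains, and Acadvl, for very long ones, had means of 0.20 ± 0.12 and 0.17 ± 0.17, the first higher in 4 of 4 pairs and the second in 3 of 4. Acad11, an acyl-CoA dehydrogenase outside that classical set, read -0.41, 0.70, 0.84 and -0.06, with a mean of 0.27 ± 0.60. It is counted among these 10 genes but was assigned to neither organelle in the comparison below.

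Hadha and Hadhb encode the subunits of the trifunctional protein, which completes the round for long chains. Hadha read 2.43, 1.19 and -0.05 in pairs 1, 2 and 4, with no value in pair 3 and a mean of 1.19 ± 1.24 (SD, n = 3, limma unadjusted p = 0.0995). Hadhb, read by a brighter probe, gave 0.43, 0.15, 0.09 and -0.02, with a mean of 0.16 ± 0.20 (SD, n = 4). The Hadha probe had an average log2 intensity of 4.98, above 9.42% of named probes, and the Hadhb probe 11.2, above 93.4%. Hadh, the hydroxyacyl-CoA dehydrogenase of shorter chains, was likewise read by a dim probe, at 5.69, and gave 0.02, 0.93 and 0.48 in pairs 2 to 4 and no value in pair 1. Acaa2, the thiolase, read 0.06, 0.27, 0.11 and 0.40, with a mean of 0.21 ± 0.16. The authors' deposited table gives Acaa2 a log2 fold change of 0.54, which is not the mean of these arrays. Decr1, the dienoyl-CoA reductase needed for unsaturated chains, read 0.73, 0.49, 0.69 and -0.39, with a mean of 0.38 ± 0.52 and 0.64 over pairs 1 to 3.

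The electron transfer genes, which pass electrons from the acyl-CoA dehydrogenases to the respiratory chain, were higher in all 4 pairs in 3 of 3 cases. Of named probes with 4 values 10.9% were, and of those brighter than the median 13.4%. Etfdh, the ubiquinone oxidoreductase, read 0.60, 0.53, 0.52 and 0.12, with a mean of 0.44 ± 0.22 (SD, n = 4, limma unadjusted p = 0.0506). Etfa, a subunit of the flavoprotein and a gene with a promoter match above, read 0.60, 0.55, 0.19 and 0.16, with a mean of 0.37 ± 0.23 (limma unadjusted p = 0.0605). Etfb, the other subunit, had a mean of 0.21 ± 0.15. Differences were small here and the pairs agreed in sign.

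The 8 genes of peroxisomal beta oxidation ranged from -0.22 for Acox3 to 1.17 for Acaa1b. A mean above 0 was seen in 5 of the 8, and in 53.5% of named probes. Acaa1b, a peroxisomal thiolase, read 1.25, 1.43, 1.84 and 0.18, averaging 1.17 ± 0.71 (SD, n = 4) or 2.26-fold, with a limma unadjusted p of 0.0236 (95% interval 0.26 to 2.09). Its neighbour on chromosome 9, Acaa1a, read 1.28, 1.30, 1.95 and 0.13, a mean of 1.16 ± 0.76 or 2.24-fold (limma unadjusted p = 0.0300). The readings of the 2 genes differed by at most 0.13 in any pair. They are near-identical copies whose probes may cross-hybridise, so the 2 readings are uncertain as separate measurements. Ehhadh, the L-bifunctional enzyme, read 1.02, 1.18, 1.08 and -0.63, with a mean of 0.66 ± 0.87 and a limma unadjusted p of 0.121. Pairs 1 to 3 agreed closely, with a mean of 1.09, and pair 4 had the opposite sign.

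Hsd17b4, the D-bifunctional enzyme that handles branched chains and bile acid precursors, read 0.48, 0.31, 0.41 and 0.29, with a mean of 0.37 ± 0.09 (SD, n = 4, limma unadjusted p = 0.0653). It had the smallest spread of the 41. Decr2, the peroxisomal dienoyl-CoA reductase, read 0.57, 0.04, 0.44 and 0.48, with a mean of 0.38 ± 0.24. The remaining enzymes, which act on branched chains, lay close to 0 or below it. Acox2, the branched-chain acyl-CoA oxidase, read -0.31, -0.04, -0.18 and 0.12, with a mean of -0.10 ± 0.19. Acox3, the pristanoyl-CoA oxidase, read -0.10, -0.50, -0.24 and -0.05, with a mean of -0.22 ± 0.20. Scp2, a sterol carrier and thiolase read by the brightest of the 41 probes, gave -0.02, -0.36, 0.07 and 0.05, with a mean of -0.07 ± 0.20.

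The 4 genes of peroxisomal transport and division ranged from -0.28 to 1.14. Abcd2, a transporter of very-long-chain acyl-CoA, read 1.35, 0.21, 2.15 and 0.86, averaging 1.14 ± 0.82 (SD, n = 4) or 2.21-fold (limma unadjusted p = 0.0276). Abcd3, the major peroxisomal membrane transporter, read 0.67, 0.47, 0.73 and -0.32, with a mean of 0.39 ± 0.49. Crot, which converts shortened chains to carnitine esters for export, read 0.86, 0.84, 0.30 and 1.07, a mean of 0.77 ± 0.33 or 1.70-fold (limma unadjusted p = 0.0178, 95% interval 0.22 to 1.32). Its highest value was in pair 4. That pair was the lowest for 5 of the 12 peroxisomal genes, against 26% of named probes with 4 values and 24.7% of the brighter ones. Pex11a, which promotes peroxisome division, read -0.32, -0.26, -0.71 and 0.17, with a mean of -0.28 ± 0.36. The authors' deposited table gives Pex11a the opposite sign, at 0.52, and no source used here gives the reason. Aldh3a2, the fatty aldehyde dehydrogenase of endoplasmic reticulum and peroxisome, read 0.87, 0.97, 1.49 and 0.48, a mean of 0.95 ± 0.42 or 1.94-fold (limma unadjusted p = 0.0144, 95% interval 0.31 to 1.59).

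The medians of the 2 organelles lay close together, and the gene means of the peroxisomal set had the larger SD. The mitochondrial set here left out Crat and Acad11, which were assigned to neither organelle. The 12 peroxisomal genes had a median log2 ratio of 0.38, and the 16 mitochondrial genes 0.37. Pair by pair, the medians were 0.62, 0.26, 0.43 and 0.15 for peroxisomal genes and 0.50, 0.38, 0.19 and 0.18 for mitochondrial genes. The difference, peroxisomal minus mitochondrial, was 0.12, -0.12, 0.24 and -0.03, with a mean of 0.05 ± 0.16 (SD, n = 4), and so was smaller than its spread over pairs. A mean above 0 was seen in 8 of 12 peroxisomal genes and 15 of 16 mitochondrial genes, with Cpt1b as the mitochondrial exception, against 53.5% of named probes. An absolute mean over 0.5 was seen in 5 of 12 and 3 of 16, against 25.3% of named probes. The SD of the gene means was 0.54 and 0.33, while their ranges were -0.28 to 1.17 and -0.41 to 1.19. At an unadjusted p under 0.05 in limma stood 4 of 12 peroxisomal genes and 3 of 16 mitochondrial genes, all higher. In that direction it was 3.45% of all probes, and 966 of 20379 named probes. Since Acaa1a and Acaa1b may be 1 signal, the peroxisomal counts could each be lower by 1. The peroxisomal SD also includes both of these genes.

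**Figure D2:**
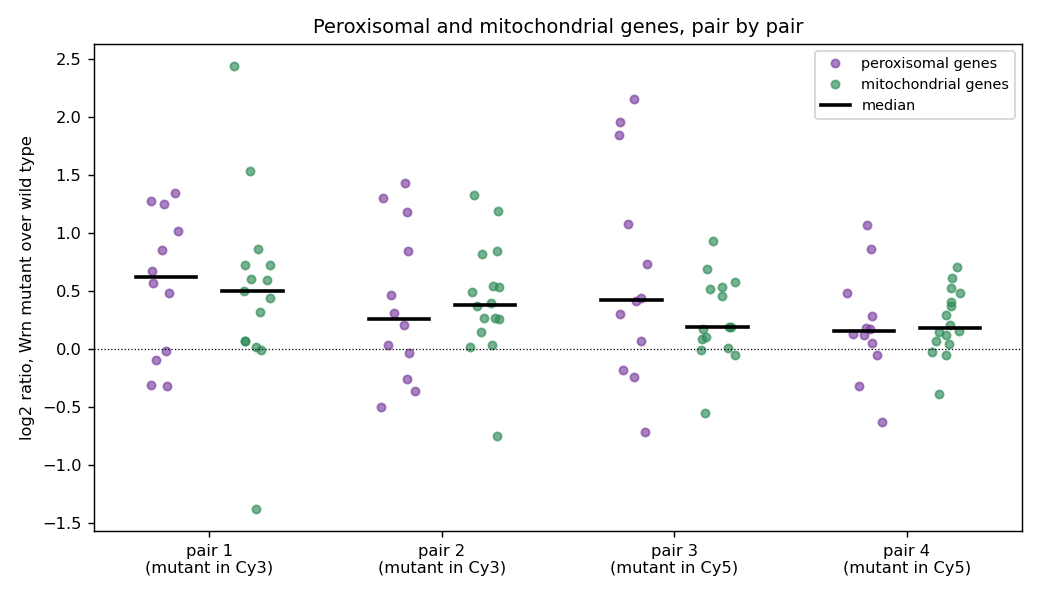
Log2 ratios (mutant over wild type, vertical axis) of 12 peroxisomal and up to 16 mitochondrial genes in each pair, with a bar at the median. The medians of both organelles lie above 0 in all 4 pairs, and the peroxisomal median is the higher one in 2 of them, pairs 1 and 3.

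Pair 4 differed from the others for part of the genes. It was the lowest pair for 19 of 38 members (50%), against 26% of named probes with 4 values and 24.7% of the brighter ones. In 8 members (21.1%), against 6.59% of named probes, pairs 1 to 3 were positive and pair 4 negative. These were Cd36, Fabp1, Slc27a1, Crat, Hadhb, Decr1, Ehhadh and Abcd3, counted after their values were seen. The corresponding counts were 1 for pair 1 (6.89% of named probes), 0 for pair 2 (5.04%) and 2 for pair 3 (6.47%). Carnitine shuttle genes did not share the pattern as a group, with medians of 0.41, 0.52, 0.50 and 0.57 in pairs 1 to 4. Without pair 4 the median of the members was 0.43. Pair 4 was hybridised with the mutant in Cy5, as was pair 3. The part of dye, array or animal in the low values of pair 4 was not tested.

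**Figure D3:**
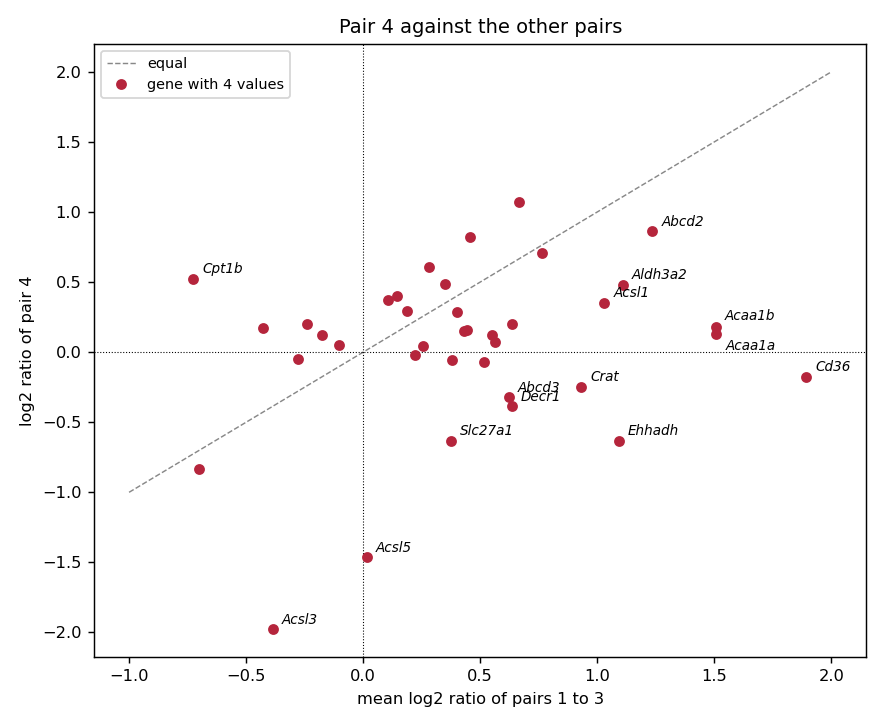
Log2 ratio of pair 4 (vertical axis) against the mean of pairs 1 to 3 (horizontal axis) for the 38 genes with 4 values, with the dashed line where both are equal. Cd36, Ehhadh, Acaa1a and Acaa1b have means of 1.89, 1.09, 1.51 and 1.51 over pairs 1 to 3 and values from -0.63 to 0.18 in pair 4, while Abcd2 keeps 0.86.

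For 9 of 38 members (23.7%), pairs 1 and 2 both lay above pairs 3 and 4, against 19.3% of named probes. For 4 of 38 (10.5%), among them Cpt1b, both lay below, against 19.6%. If the 2 arrays with the mutant in Cy5 were turned, the median of the members would be 0.04 and 0 members would be higher in all 4 pairs.

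Ratios of dim probes spread more widely than those of bright ones, and most members were bright. The median average log2 intensity was 11.2 for the members and 6.40 for named probes, and 36 of the 41 (87.8%) lay above that median of named probes. Intensities describe the spots and are not levels of the transcripts. The 5 dimmer members were Slc27a2, Hadha, Hadh, Acad11 and Cpt1a, and 3 of these were the members with a missing value. All 17 members that were higher in 4 of 4 pairs were among the 36 bright ones.

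**Figure D4:**
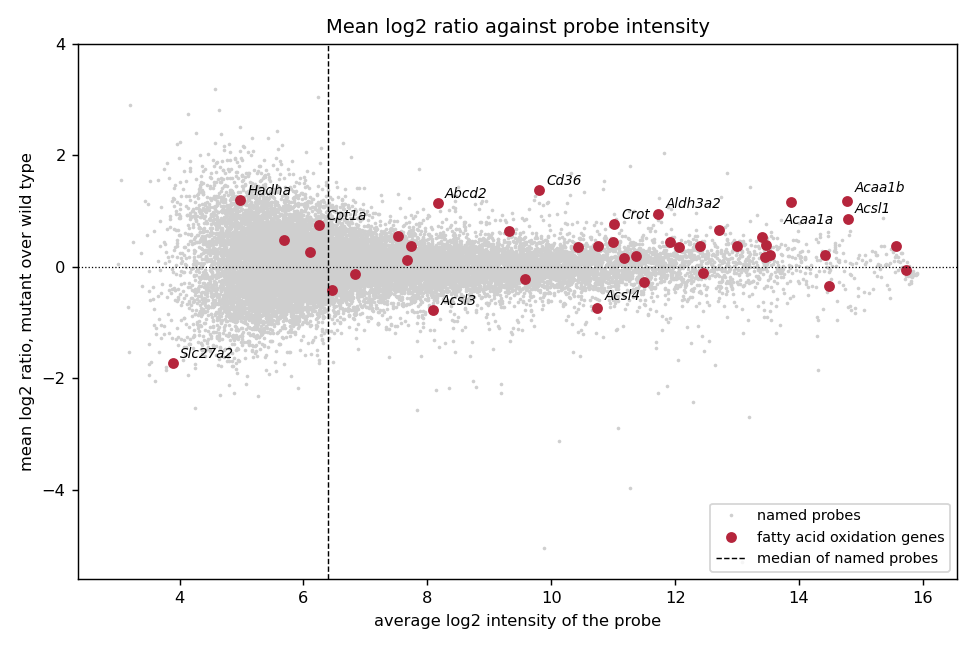
Mean log2 ratio (mutant over wild type, vertical axis) against average log2 intensity (horizontal axis) for named probes with at least 3 values in grey and the 41 genes in red, with the median intensity of 6.40 dashed. Hadha and Slc27a2 lie in the wide cloud of dim probes, whereas Cd36, Abcd2, Aldh3a2, Acsl1, Acaa1a, Acaa1b and Acsl4 lie to the right of the line.

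Other genes of the pathway were described from 6 lists. Among all features, 53.5% of named probes had a mean above 0, 10.9% were higher in all 4 pairs, and 3.45% of probes were higher and 3.19% lower at an unadjusted p under 0.05. Of 9 further mitochondrial genes, 9 had a mean above 0, 6 were higher in all 4 pairs and 2 had an unadjusted p under 0.05 in limma, with a list median of 0.29. Hsd17b10, a mitochondrial hydroxyacyl-CoA dehydrogenase, was at 0.57 ± 0.24 (SD, n = 4). Eci1 and Eci2, enoyl-CoA isomerases for unsaturated chains, were at 0.53 ± 0.28 and 0.43 ± 0.36. The Eci1 row is printed as Dci and the Eci2 row as Peci. Each gene of these lists was placed in 1 list only, and where its protein lies was not checked here. Of 11 further peroxisomal genes, 6 had a mean above 0, with a median of 0.04, 1 higher and 1 lower at an unadjusted p under 0.05. Ech1, a dienoyl-CoA isomerase, read 0.66, 0.71, 0.77 and 0.32, with a mean of 0.62 ± 0.20, and Hacl1, the lyase of alpha oxidation, was at -0.50 ± 0.82. Peroxisome assembly genes had a median of 0.11 over 17 genes, with 0 at an unadjusted p under 0.05 in limma.

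Of 10 further uptake and activation genes, 5 had a mean above 0 and the median was 0.02. Fabp2, a fatty acid binding protein best known from intestine, read 0.99, 0.73, 1.17 and 0.55, with a mean of 0.86 ± 0.27 (SD, n = 4, limma unadjusted p = 0.00999). Acsm1, a medium-chain acyl-CoA synthetase, was at -0.40 ± 0.12 and lower in 4 of 4 pairs. Among 11 regulators, 6 had a mean above 0. Ppara itself, singled out after its value was seen, read 1.06, -0.40, 0.22 and 0.70, with a mean of 0.40 ± 0.63 and a limma unadjusted p of 0.268. Acacb, which makes the malonyl-CoA that restrains Cpt1a, read -0.89, -1.40, -0.40 and -2.64, lower in 4 of 4 pairs (limma unadjusted p = 0.0371). Pparg, a related receptor, was at 0.89 ± 0.73 and higher in 4 of 4 pairs.

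PPAR alpha targets outside oxidation had a median of 0.96 over 12 genes, with 11 means above 0, against 53.5% of named probes. At an unadjusted p under 0.05 in limma there were 3 of them, all higher, against 3.45% of all probes. Their pair medians were 0.74, 0.78, 1.59 and -0.11, so pair 4 was lowest here too. Angptl4, a secreted inhibitor of lipoprotein lipase, read 0.39, 1.64, 1.38 and 1.94, with a mean of 1.34 ± 0.67 (SD, n = 4, limma unadjusted p = 0.00902) and its highest value in pair 4. Cidec, a lipid droplet protein, was at 1.20 ± 0.55 and higher in 4 of 4 pairs. No gene of the 6 lists passed in limma with the dye term over all probes. This list was chosen with earlier results of these data known and is no independent evidence of direction.

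**Figure D5:**
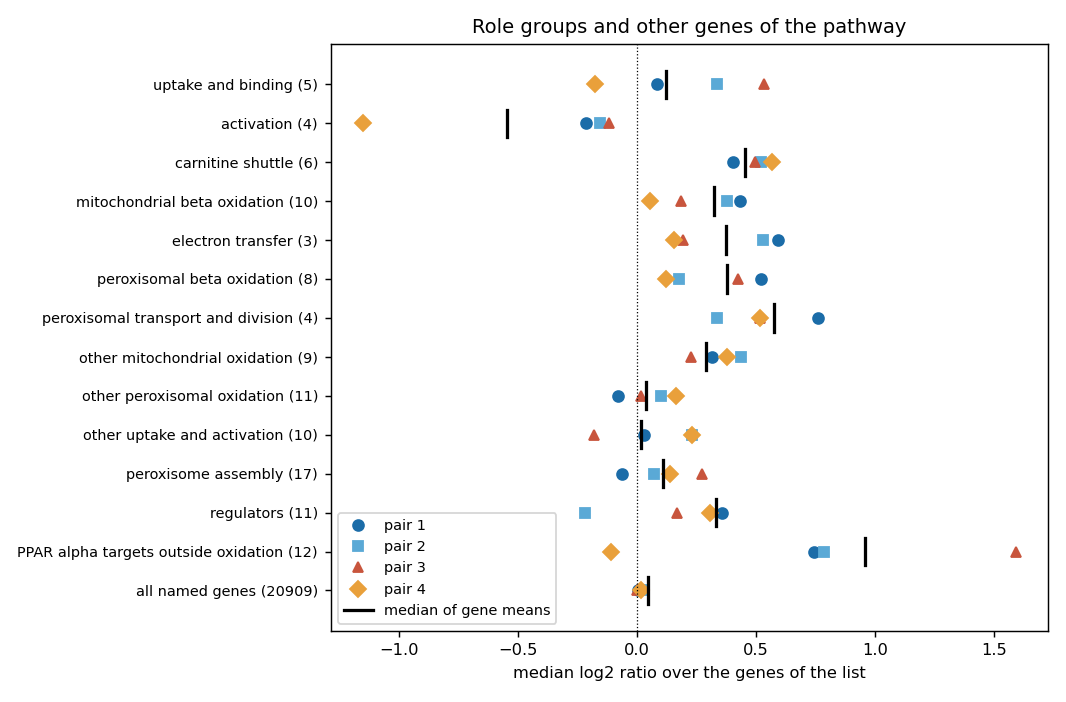
Median log2 ratio (mutant over wild type, horizontal axis) of each role group and each list of other pathway genes in pairs 1 to 4, with a black bar at the median of the gene means and the number of genes in brackets. Medians of the carnitine shuttle lie between 0.41 and 0.57 in all pairs, while activation genes have -1.15 in pair 4 and PPAR alpha targets outside oxidation -0.11.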

How the data were processed

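RNA of 4 mutant and 4 wild-type livers was measured on 4 two-colour Agilent arrays. The deposited array tables hold a log2 ratio for each probe and, per the file headers, the authors' gene table holds an average log2 intensity and a log2 fold change per named gene. Limma is named in the submitters' processing notes, without a version. How background was corrected, how values were normalized and what was filtered stays unknown from the labels and headers. Members were matched by printed symbol, and the accession of all 41 gives the same current symbol. Only array ratios and intensities were used for values.

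In R 4.3.3 with limma 3.58.1, a model of genotype and dye (lmFit, eBayes) was run on the 40238 probes measured on 3 or more arrays, with Benjamini-Hochberg adjustment over all of them at 0.05. All 41 members passed this filter, and the fit was tested on simulated data. Means and SDs are over pairs, and medians of lists carry no test. The members and lists were chosen with earlier results of these data known. All members could be named. Pair values are given where all 4 have 1 sign and the absolute mean is over 0.5, for the 3 smallest p-values per role group, and where a sign opposes the group median; other members' values were added. Other pathway genes are among the 3 smallest p-values of their list unless marked. The planned search for peroxisomal targeting signals was not run, since no protein sequences were used here. One gene of the pathway lists is not reported here by name.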

Additional observations from a re-analysis of the deposited data

Results flagged for a closer look

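In 3 of 55 results, 1 pair stood apart from the remaining pairs, where about 2.75 would by chance if any of the 4 pairs counts. It was pair 4 each time. For Cd36 the value of pair 4 was -0.17, and pairs 1 to 3 lay between 1.85 and 1.96. For Ehhadh it was -0.63, and pairs 1 to 3 lay between 1.02 and 1.18. The activation genes had a median of -1.15 there, and of -0.21 to -0.12 in pairs 1 to 3.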

How the results depend on the processing

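Centring or scaling the arrays, array weights, robust eBayes, named probes only, the intensity prior and dropping the dye term kept the direction of all 41 members and the count of 0 passing, as did brighter probes only (36 members) and probes with 4 values only (38). Over all features tested, limma called 0 of 40238 probes, 1 of 10414 brighter named probes, and 42 of 20379 named probes with the intensity prior or 40 without its dye term. The intensity prior with no dye term was added after the data were seen. Turning the 2 arrays with the mutant in Cy5 changed most: 1 member then had an unadjusted p under 0.05, 0 were higher in all 4 pairs, and medians were 0.037 for members, 0.0066 for peroxisomal and 0.11 for mitochondrial genes. It turned the sign of 13 members, to 0.48 for Slc27a2, 0.54 for Acsl3, 0.22 for Acsl5, -0.17 for Cpt2, -0.15 for Slc22a5, -0.0059 for Acadvl, -0.12 for Acad11, -0.34 for Hadh, -0.044 for Acaa2, -0.0196 for Etfb, -0.078 for Decr2, -0.37 for Abcd2 and -0.034 for Aldh3a2. The cause follows from the alternative's construction. Leaving out 1 pair gave 3 to 11 members at an unadjusted p under 0.05, a member median of 0.30 to 0.43 and an organelle difference of 0.04 to 0.11. It left 17 to 25 members higher in all remaining pairs. The share of named probes higher in those remaining pairs was not counted, so these member counts have no background beside them. The fitted values then ran from -0.21 to 0.45 for Slc27a1, -0.80 to 0.091 for Acsl5, -0.0080 to 0.55 for Acad11 and -0.15 to 0.0196 for Scp2. With beta oxidation enzymes only, the organelle difference was -0.002. Each ratio is taken within a pair, so the fit is already paired and no further replicate block was added. Signal over background was not analysed here.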
